A study of Mus musculus with 12 samples.

Results

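The lysosomal proteases described here are the cathepsins A, B, C, D, H, K, L and Z and legumain, together with cystatin C, a secreted inhibitor of the cysteine cathepsins. They are the 10 genes Ctsa, Ctsb, Ctsc, Ctsd, Ctsh, Ctsk, Ctsl, Ctsz, Lgmn and Cst3, picked by symbol out of 53819 gene names in each count file. All 10 were among the 13151 genes that had enough counts to be tested. RNA was sequenced in 12 libraries of monocytes from the bone marrow of wild-type (WT) C57Bl6J mice, 3 libraries in each of 4 groups. The groups are monocytes kept with platelets overnight, washed and then given LPS (platelets plus LPS), monocytes given LPS only, monocytes kept with platelets overnight (platelets alone), and untreated monocytes. Lipopolysaccharide (LPS) is a bacterial cell wall product sensed through Toll-like receptor 4. The isolation of the monocytes, the amounts of platelets and LPS, the hours with LPS and the mice's age were not given in the sources used here.

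Cathepsins are made as inactive precursors, carried to the endosome and lysosome largely by mannose 6-phosphate receptors, and activated there at acid pH. In monocytes and macrophages they degrade endocytosed protein, trim the invariant chain and antigens for MHC class II, and activate other proteases; some are also secreted. Cystatins and stefins bind and block the cysteine cathepsins outside and inside the cell.

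Transcription factors of the MiT/TFE family (Tfeb, Tfe3, Mitf and Tfec) are known to bind the E-box core CACGTG in promoters of many lysosomal genes. RefSeq promoter windows of the GRCm38.p6 build, running from 250 bases before to 50 bases after a start site, were given for 8 of the 10 genes and searched on both strands. Ctsb and Ctsh had no window and were not searched. CACGTG was present in Ctsa, Ctsd, Ctsl and Lgmn, 4 of the 8, where 8.09% of 27025 genes with a window held it. The longer TCACGTG, which contains CACGTG, was present in Ctsa, Ctsd and Lgmn, with 4.29% of all genes holding it. GAGGAA, the core bound by the myeloid factor PU.1, was present in Cst3, Ctsc and Ctsk, 3 of the 8, with 31.3% of all genes holding it. Ctsa and Lgmn each also had a window at another start site, which held no CACGTG. The 6 CACGTG matches are shown because they mark which of the 8 genes searched carry this E-box core near a start site. Each line gives 30 bases of the gene's own strand and the place of the motif's first base. The capitals mark CACGTG.

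Ctsa, chr2:164833749-164833778, + strand, 12 bases before the start: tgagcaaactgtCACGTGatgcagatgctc
Ctsa, chr2:164833766-164833795, + strand, position 6 after the start: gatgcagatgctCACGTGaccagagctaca
Ctsd, chr7:142388048-142388077, - strand, 245 bases before the start: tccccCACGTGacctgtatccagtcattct
Ctsd, chr7:142387908-142387937, - strand, 98 bases before the start: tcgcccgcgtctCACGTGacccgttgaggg
Ctsl, chr13:64370739-64370768, - strand, 236 bases before the start: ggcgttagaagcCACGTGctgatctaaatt
Lgmn, chr12:102439124-102439153, - strand, 49 bases before the start: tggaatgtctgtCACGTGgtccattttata

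These matches describe letters in a window and say nothing of whether a factor was bound there. Of the 4 genes with CACGTG, Ctsd, Ctsl and Lgmn were lower with LPS and Ctsa was not called under the main TMM scaling, while with platelets Ctsd was higher, Ctsl lower and the other two not called, as described next.

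Levels are in CPM, the gene's count relative to the library size, with TMM factors (the trimmed mean of M-values) applied to that size. The 10 genes took a large part of the monocyte library. They held 2.19 to 2.39% of all counts with platelets plus LPS and 2.12 to 2.18% with LPS alone, against 3.44 to 3.83% with platelets alone and 3.31 to 3.36% in untreated cells. Both groups given LPS lay below both groups not given it, with no overlap. These shares are of all counts in a library, without TMM factors. With library size alone, the median log2 fold change of all genes with LPS over untreated cells was −0.37, against 0.01 under TMM. How far the LPS groups lay below the others therefore depends on the scaling. Among all tested genes ordered by CPM in untreated cells, Ctsb ranked 4, Ctsd 7 and Ctsl 9, while Ctsk ranked 8030. Per kilobase of transcript in untreated cells, Ctsd had 3353 CPM per kb and Ctsb 2670 CPM per kb, followed by Cst3 at 1123 CPM per kb. Ctsz, Lgmn and Ctsl had 697, 685 and 637 CPM per kb, and Ctsc, Ctsa and Ctsh had 308, 255 and 175 CPM per kb. Ctsk stood at 5.77 CPM per kb. The value of Ctsl turned on the transcript taken, since its shorter principal transcript of 1971 bases gave 1994 CPM per kb in place of 637 with 6168 bases. With platelets plus LPS, Ctsb led at 2737 CPM per kb, ahead of Ctsd at 2445 and Ctsz at 1245 CPM per kb. That lead turned on the length too, since over the union of all exons Ctsd had 2212 and Ctsb 2146 CPM per kb with platelets plus LPS. The union also placed Ctsl above Lgmn and Ctsa above Ctsc in untreated cells.

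**Figure D1:**
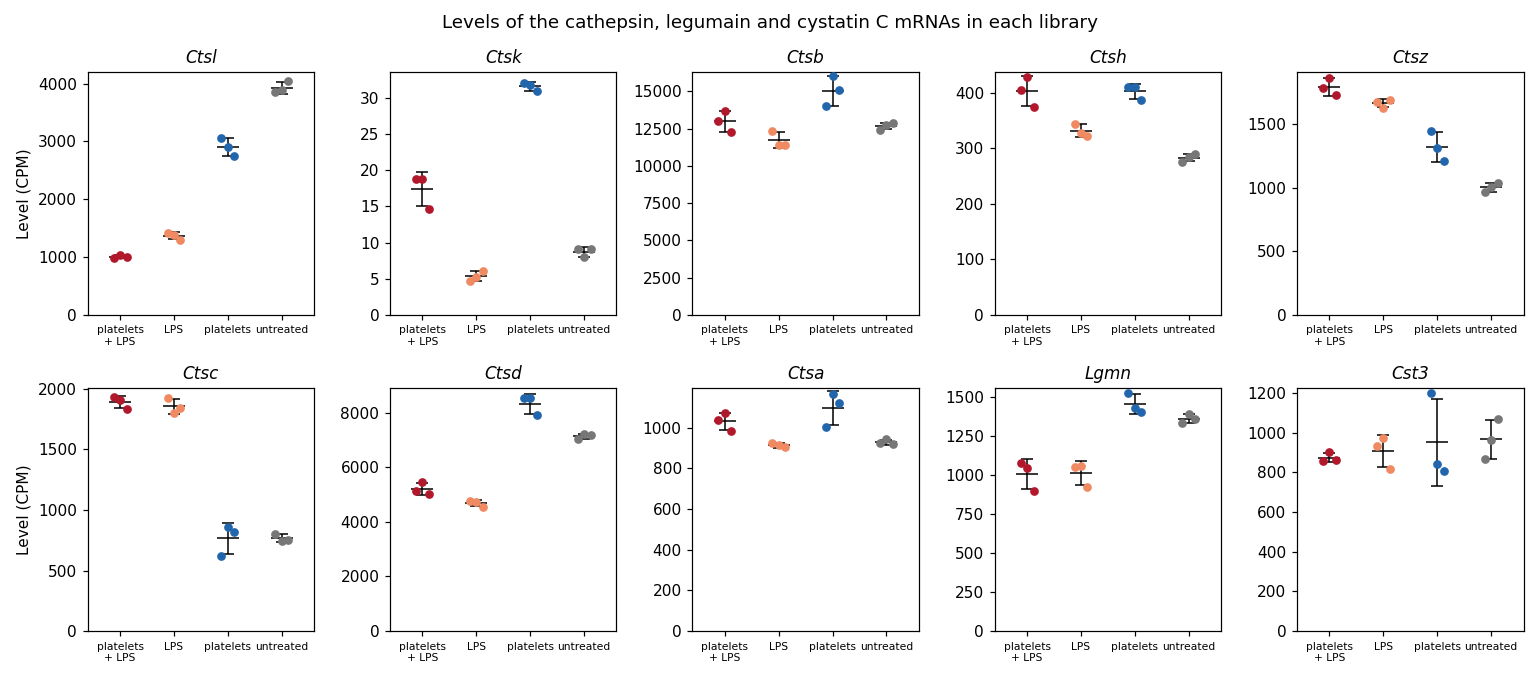
Level in CPM (y axis, from 0, with its own scale for each gene) of the 10 genes in each of the 12 libraries, by group (x axis); points are libraries and bars are mean ± SD, n = 3 each. Ctsl is lowest with platelets plus LPS, Ctsk is highest with platelets alone, Ctsc and Ctsz are higher in both LPS groups, and Cst3 overlaps across all groups.

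The first comparison asks what overnight platelet contact did to these genes without LPS. Ctsk rose 3.62-fold and Ctsh and Ctsz rose by less, Ctsl fell, and Ctsb and Ctsd rose by amounts that were near the threshold. By edgeR's quasi-likelihood test with Benjamini-Hochberg adjustment over all genes tested (adjusted p under 0.05), 5 of the 10 genes were higher and 1 lower with platelets. Over all genes, 6.49% were called, 3.63% as higher and 2.86% as lower. Libraries of the groups did not overlap for 8 of the 10 genes, and for 25.1% of all genes. The median log2 fold change of the 10 genes was 0.23, and that of all genes tested was 0. These are bulk libraries, in which fewer cells of a type and less RNA per cell cannot be told apart. Some markers of other cells were also called higher with platelets. Of tested markers, 6 of 13 platelet, 3 of 4 erythroid, 4 of 5 basophil and mast cell and 3 of 8 dendritic ones were higher. In the platelet list 1 was lower. Sums of these markers are given further on.

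Among the cysteine endopeptidases, Ctsk, the collagen-cleaving cathepsin best known from osteoclasts, moved most. It had 32.1, 31.8 and 30.9 CPM with platelets alone, against 9.12, 7.96 and 9.08 CPM in untreated cells. Every platelet library stood above every untreated one, and the log2 fold change was 1.86 (SE 0.13, edgeR adjusted p = 2.51e-07). Ctsk is still a low gene: its counts were 913 to 1086 in the platelet libraries, against 227 to 267 in the untreated ones.

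Ctsl, a broadly acting endopeptidase, had 3059, 2903 and 2752 CPM with platelets alone, against 3858, 3882 and 4049 CPM in untreated cells. The groups did not overlap, and Ctsl was 1.35-fold lower with platelets (log2 −0.44, SE 0.06, edgeR adjusted p = 0.000583). Ctsb, which acts as both an endopeptidase and a dipeptidase trimming carboxyl ends, had 14013, 16048 and 15057 CPM with platelets alone, against 12415, 12730 and 12854 CPM in untreated cells. Its libraries did not overlap either, and it was called higher at log2 0.25 (SE 0.06, edgeR adjusted p = 0.0306). Without platelet replicate 2 or 3, any 1 untreated replicate or replicate 1 of platelets plus LPS, the edgeR adjusted p of Ctsb was 0.0507 to 0.129. With library size alone it was 0.064, and with just the 2 groups fitted 0.0894.

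Of the cathepsins that trim chain ends, Ctsh and Ctsz rose and Ctsc did not pass the test. Ctsh, mainly an aminopeptidase, had 410, 410 and 387 CPM with platelets alone, against 276, 284 and 289 CPM in untreated cells. All platelet libraries were above all untreated libraries (log2 0.51, SE 0.07, edgeR adjusted p = 0.000515). Ctsz, also called cathepsin X, which removes single residues from the carboxyl end, had 1445, 1310 and 1212 CPM with platelets alone, against 965, 1010 and 1038 CPM in untreated cells. These did not overlap, with platelet replicate 1 the highest (log2 0.40, SE 0.07, edgeR adjusted p = 0.00363). Ctsc, the dipeptidyl peptidase that activates granule serine proteases, had 616, 860 and 820 CPM with platelets alone, against 802, 742 and 756 CPM in untreated cells. Its platelet libraries spread over both sides of the untreated ones, with a log2 fold change of −0.00 (95% interval −0.21 to 0.21, edgeR adjusted p = 0.998). Without platelet replicate 1, which had the lowest Ctsc, the log2 fold change was 0.15 (edgeR adjusted p = 0.133).

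Ctsd, the main aspartic protease of the lysosome, had 8540, 8521 and 7892 CPM with platelets alone, against 7028, 7197 and 7168 CPM in untreated cells. The groups did not overlap, and Ctsd was called higher at log2 0.22 (SE 0.06, edgeR adjusted p = 0.0345). Without platelet replicate 2, any 1 untreated replicate or replicate 1 of platelets plus LPS, the edgeR adjusted p of Ctsd was 0.0579 to 0.131, without a filter on low counts 0.122 and with just the 2 groups fitted 0.108. Ctsa, a serine carboxypeptidase that also protects β-galactosidase and neuraminidase in a complex, had 1003, 1163 and 1123 CPM with platelets alone, against 924, 942 and 918 CPM in untreated cells. Platelet replicate 1 was the lowest of the platelet libraries and still above the untreated ones, but Ctsa was not called (log2 0.24, SE 0.07, edgeR adjusted p = 0.0567). Without that library the edgeR adjusted p was 0.00113, at log2 0.32. On all 12 libraries Ctsa was called higher by DESeq2 (adjusted p = 0.0117) and limma-voom (adjusted p = 0.0463). It was also called by edgeR with DESeq2 size factors, upper-quartile factors and the stricter filter (adjusted p = 0.0495, 0.0229 and 0.0469).

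Lgmn, the asparagine-specific endopeptidase that cuts some cathepsins into their mature chains, had 1527, 1432 and 1403 CPM with platelets alone, against 1336, 1392 and 1359 CPM in untreated cells. The libraries did not overlap and Lgmn was not called (log2 0.09, 95% interval −0.08 to 0.27, edgeR adjusted p = 0.564). Cst3 had 1200, 843 and 806 CPM with platelets alone, against 868, 962 and 1067 CPM in untreated cells. Platelet replicate 1 held the highest Cst3 of all libraries and its replicates the lowest of these 6 (log2 −0.02, 95% interval −0.29 to 0.25, edgeR adjusted p = 0.948).

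In the labels of platelet replicate 1 the description reads control, but both the title and the treatment say platelets, and it was kept in the platelet group. It stood apart from its replicates, since a chi-square test of its counts against theirs gave 74.1 and 81.8 per degree of freedom, where the remaining within-group pairs gave 6.54 to 20.8. Its share of mitochondrial counts was 0.886%, against 0.431 to 0.600% in the others. Total counts were 20060867 to 32155727 per library. Nothing in the labels says that replicate libraries are separate mice or cultures, so the spread behind each p-value is that of these libraries and may be technical. Without platelet replicate 1, 7 of the 10 genes were called with platelets: the 6 above and Ctsa.

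The second comparison asks how LPS alone changed these genes, and some rose while others fell. Ctsc rose 2.42-fold and Ctsz 1.66-fold, while Ctsl fell 2.87-fold and Ctsk, Ctsd and Lgmn fell 1.65-fold, 1.52-fold and 1.35-fold. By edgeR, 3 genes were higher and 4 lower with LPS, where 50.7% of all genes were called, 27.7% higher and 23% lower, a background against which 7 of 10 is to be read. Libraries did not overlap for 8 of the 10 genes, and for 60.5% of all genes. The median log2 fold change of the 10 genes was −0.10, and that of all genes was 0.01.

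Ctsl had 1421, 1381 and 1302 CPM with LPS, against the 3858 to 4049 CPM of untreated cells given before. The groups lay far apart (log2 −1.52, SE 0.07, edgeR adjusted p = 1.35e-11). Ctsk had 4.67, 5.20 and 6.05 CPM with LPS, against 7.96 to 9.12 CPM in untreated cells. It too did not overlap (log2 −0.73, SE 0.14, edgeR adjusted p = 0.000407). Ctsb had 12319, 11421 and 11368 CPM with LPS, against 12415 to 12854 CPM in untreated cells, all below but close by. It was not called (log2 −0.11, 95% interval −0.25 to 0.02, edgeR adjusted p = 0.153), though it was called lower without platelet replicate 1 (edgeR adjusted p = 0.0184) and with just the 2 groups fitted (edgeR adjusted p = 0.0468).

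Ctsc had 1922, 1800 and 1845 CPM with LPS, against 742 to 802 CPM in untreated cells. Every LPS library stood far above every untreated one, and the log2 fold change was 1.28 (SE 0.10, edgeR adjusted p = 2.29e-08). Ctsz had 1677, 1632 and 1692 CPM with LPS, against 965 to 1038 CPM in untreated cells. The LPS libraries were close together and all higher (log2 0.73, SE 0.07, edgeR adjusted p = 4.54e-07). Ctsh had 344, 328 and 322 CPM with LPS, against 276 to 289 CPM in untreated cells. It was called higher (log2 0.23, SE 0.07, edgeR adjusted p = 0.0175), but the call was lost under upper-quartile factors (log2 0.03, adjusted p = 0.785) and without a filter on low counts (log2 0.21, adjusted p = 0.148). Scaling by library size alone turned it to log2 −0.15 (adjusted p = 0.0699). Without LPS replicate 1, untreated replicate 1 or untreated replicate 2, the edgeR adjusted p of Ctsh was 0.0708, 0.0635 or 0.0518.

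Ctsd had 4754, 4723 and 4552 CPM with LPS, against 7028 to 7197 CPM in untreated cells. No LPS library came near the untreated ones (log2 −0.61, SE 0.06, edgeR adjusted p = 2.73e-07). Lgmn had 1055, 1060 and 922 CPM with LPS, against 1336 to 1392 CPM in untreated cells. It was lower in all 3 LPS libraries (log2 −0.43, SE 0.08, edgeR adjusted p = 4e-04). Ctsa had 926, 912 and 903 CPM with LPS, inside or just below the untreated 918 to 942 CPM, and was not called (log2 −0.02, 95% interval −0.17 to 0.13, edgeR adjusted p = 0.823). Cst3 had 932, 970 and 816 CPM with LPS, overlapping the untreated 868 to 1067 CPM (log2 −0.09, 95% interval −0.36 to 0.18, edgeR adjusted p = 0.589).

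The scaling of the libraries bears on every LPS value. The median log2 fold change of all genes with LPS was 0.01 under TMM, −0.02 under DESeq2 size factors, −0.19 under upper-quartile factors and −0.37 with library size alone. Over all genes, 3640 were called higher and 3021 lower under TMM, against 2650 and 4350 under upper-quartile factors and 2133 and 5975 with library size alone. Under the last of these, 2 of the 10 genes were called higher (Ctsc and Ctsz) and 7 lower. These 7 included Ctsa, Ctsb and Cst3 at log2 −0.40, −0.49 and −0.47 (edgeR adjusted p = 0.000343, 1.14e-05 and 0.00181), none of which was called under TMM. Upper-quartile factors called Ctsa and Ctsb lower as well, at log2 −0.22 and −0.32 (edgeR adjusted p = 0.0102 and 0.000318). A scaling moves all genes alike, so values relative to the median are nearly the same under each by construction. Relative to it, Ctsz lay 0.72 and Ctsh 0.22 higher, Cst3 lay at −0.10 and Ctsb at −0.12, on the log2 scale with library size alone.

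**Figure D2:**
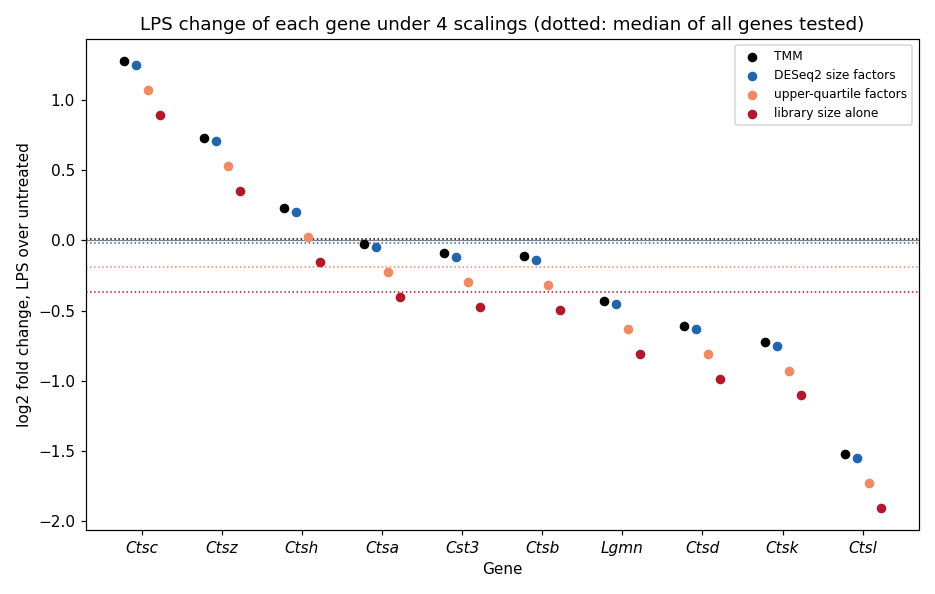
Log2 fold change of LPS over untreated (y axis) of the 10 genes (x axis) under 4 library scalings, shown by colour; dotted lines are the medians of all genes under each scaling. All 10 points of a scaling shift together with its median, as a change of scaling must make them, Ctsc and Ctsz stay above 0 and Lgmn, Ctsd, Ctsk and Ctsl stay below it under all 4, and Ctsh changes sign with library size alone.

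The third comparison asks what earlier platelet contact did in cells then given LPS, with LPS alone as the base. Ctsk rose 3.30-fold, Ctsl fell 1.36-fold and Ctsh rose 1.22-fold, and the other 7 genes did not pass the test. By edgeR, 2 of the 10 were higher and 1 lower, where 7.28% of all genes were called, 4.41% higher and 2.87% lower. Libraries did not overlap for 6 of the 10 genes, and for 27% of all genes. The median log2 fold change was 0.13 over the 10 genes and 0.01 over all genes.

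Ctsk had 18.8, 18.8 and 14.6 CPM with platelets plus LPS, against 4.67 to 6.05 CPM with LPS alone. Every exposed library was above every unexposed one (log2 1.72, SE 0.14, edgeR adjusted p = 8.6e-07). Ctsl had 985, 1032 and 1000 CPM with platelets plus LPS, against 1302 to 1421 CPM with LPS alone. It was lower in all 3 exposed libraries (log2 −0.44, SE 0.06, edgeR adjusted p = 0.000498). Ctsh had 406, 429 and 375 CPM with platelets plus LPS, against 322 to 344 CPM with LPS alone. The libraries did not overlap (log2 0.28, SE 0.07, edgeR adjusted p = 0.0313), but the call was lost without any 1 of replicates 1 and 2 of platelets plus LPS, replicates 1, 2 and 3 of LPS alone and untreated replicate 2 (edgeR adjusted p of 0.0561 to 0.159). It was also lost without a filter on low counts (edgeR adjusted p = 0.0875).

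Ctsa, Ctsd and Ctsz were higher in every exposed library without being called. Ctsa had 1036, 1069 and 985 CPM with platelets plus LPS, against 903 to 926 CPM with LPS alone (log2 0.17, edgeR adjusted p = 0.181). It was called without platelet replicate 1, a library of neither group that enters the shared estimate of spread (edgeR adjusted p = 0.0455). Ctsd had 5129, 5464 and 5007 CPM, against 4552 to 4754 CPM with LPS alone (log2 0.15, edgeR adjusted p = 0.15), and Ctsz had 1784, 1868 and 1730 CPM, against 1632 to 1692 CPM (log2 0.11, edgeR adjusted p = 0.484).

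For the other 4 genes the exposed and unexposed LPS libraries overlapped. Ctsb had 12983, 13688 and 12277 CPM with platelets plus LPS, against 11368 to 12319 CPM with LPS alone (log2 0.15, 95% interval 0.01 to 0.29, edgeR adjusted p = 0.202). Ctsc had 1932, 1904 and 1835 CPM, against 1800 to 1922 CPM (log2 0.03, 95% interval −0.18 to 0.24, edgeR adjusted p = 0.923). Lgmn had 1075, 1046 and 896 CPM, against 922 to 1060 CPM (log2 −0.01, 95% interval −0.18 to 0.17, edgeR adjusted p = 0.968). Cst3 had 858, 902 and 862 CPM, against 816 to 970 CPM (log2 −0.05, 95% interval −0.32 to 0.22, edgeR adjusted p = 0.878).

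Whether the platelet effect differed with and without LPS was tested directly, as the log2 platelet effect with LPS minus that without. None of the 10 genes was called by edgeR, DESeq2 or limma-voom, where edgeR called 1.58% of all genes, 0.859% as higher and 0.722% as lower; Ctsh and Ctsz had an unadjusted p under 0.05. Ctsz had the largest difference, at −0.29 (95% interval −0.51 to −0.07, edgeR adjusted p = 0.271), and Ctsh had −0.23 (95% interval −0.45 to −0.00, edgeR adjusted p = 0.46). For Ctsk, with platelet effects of 1.72 with LPS and 1.86 without it, the difference was −0.13 (95% interval −0.53 to 0.26, edgeR adjusted p = 0.9). For Ctsl, at −0.44 with LPS and −0.44 without it, the difference was −0.01 (95% interval −0.20 to 0.19, edgeR adjusted p = 0.995). The intervals say how large a difference these libraries could have missed, and a p above the threshold does not show that the effects were alike.

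**Figure D3:**
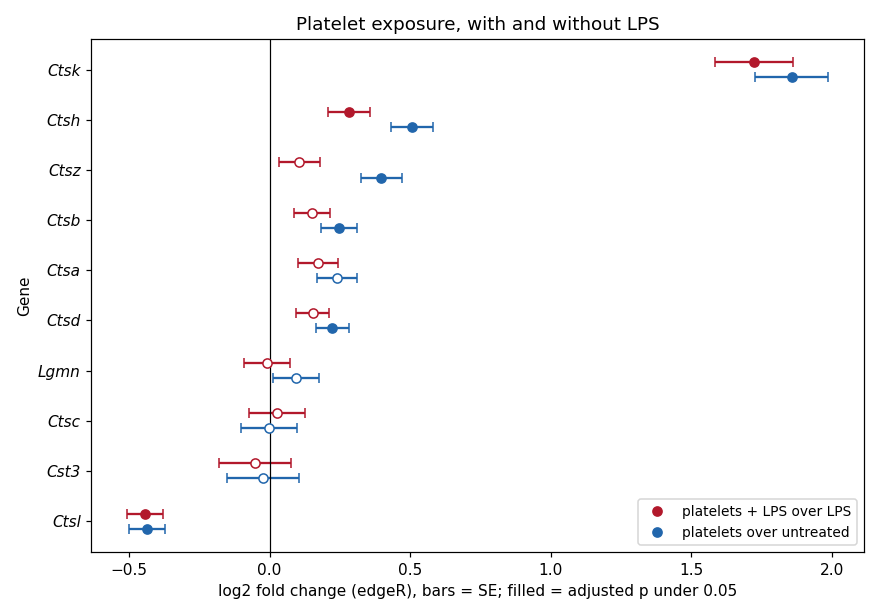
Log2 fold change (x axis) of the platelet effect for each of the 10 genes (y axis), with LPS (platelets plus LPS over LPS alone, red, upper) and without LPS (platelets alone over untreated, blue, lower); bars are SE and filled points had an edgeR adjusted p under 0.05. Ctsk stands at 1.72 and 1.86, Ctsl at −0.44 in both, and Ctsz, Ctsb and Ctsd are filled only without LPS.

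The LPS effect in platelet-exposed cells was measured against platelets alone. By edgeR, Ctsc and Ctsz were higher and Ctsb, Ctsd, Ctsk, Ctsl and Lgmn lower, 7 of the 10, where 49.4% of all genes were called, 27.6% higher and 21.8% lower. Libraries did not overlap for the same 7 genes, and for 54.8% of all genes. Ctsc averaged 1890 ± 49.7 CPM with platelets plus LPS and 766 ± 131 CPM with platelets alone (SD, n = 3 each), a log2 fold change of 1.30 (SE 0.10, edgeR adjusted p = 1.87e-08). Ctsl averaged 1006 ± 24.3 CPM with platelets plus LPS and 2905 ± 154 CPM with platelets alone (log2 −1.53, SE 0.07, edgeR adjusted p = 1.37e-11). Neither gene's libraries overlapped.

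Ctsk was lower at log2 −0.86 (SE 0.13, edgeR adjusted p = 2.87e-05), Ctsd at −0.68 (edgeR adjusted p = 8.11e-08) and Lgmn at −0.53 (edgeR adjusted p = 5.4e-05). Ctsz was higher at log2 0.44 (SE 0.07, edgeR adjusted p = 0.000112), a call lost with library size alone (log2 0.08, adjusted p = 0.284). Ctsb was lower at log2 −0.21 (SE 0.06, edgeR adjusted p = 0.0116), a call lost without replicate 3 of platelets plus LPS or platelet replicate 2 (edgeR adjusted p of 0.0627 and 0.0648). Ctsh averaged 403 ± 26.9 CPM with platelets plus LPS and 402 ± 13.0 CPM with platelets alone, and its log2 value of 0.00 (95% interval −0.16 to 0.16, edgeR adjusted p = 0.98) was −0.05 under DESeq2 size factors. Ctsh was called lower under upper-quartile factors (log2 −0.24, adjusted p = 0.0126) and with library size alone (log2 −0.36, adjusted p = 0.000407). Ctsa and Cst3 were not called under TMM (log2 −0.09 and −0.12, edgeR adjusted p = 0.316 and 0.466). Ctsa was called lower under upper-quartile factors (log2 −0.33, adjusted p = 0.000639) and with library size alone (log2 −0.45, adjusted p = 0.000126). Cst3 was too, at log2 −0.36 (adjusted p = 0.029) and −0.47 (adjusted p = 0.00183). Without platelet replicate 1, Ctsa was called lower at log2 −0.21 (edgeR adjusted p = 0.0045).

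**Figure D4:**
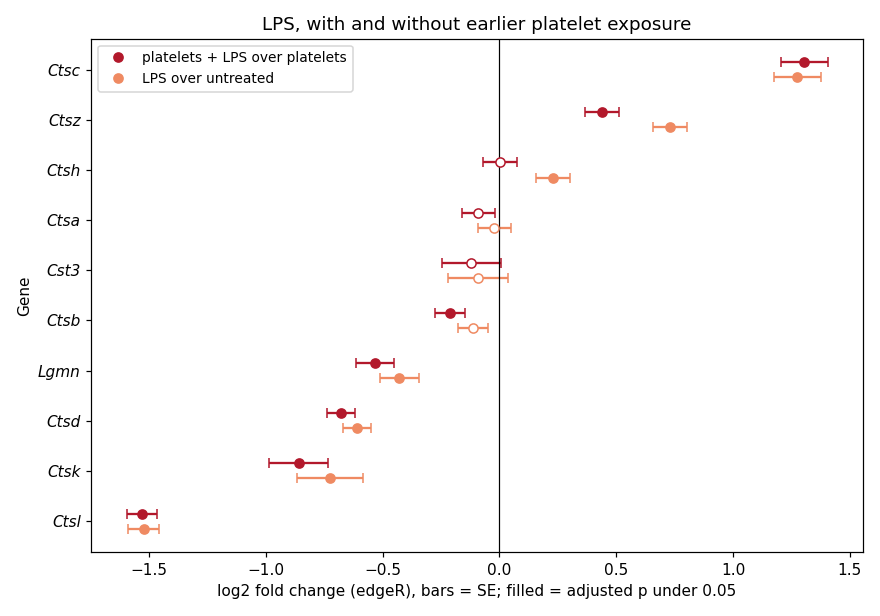
Log2 fold change (x axis) of the LPS effect for each of the 10 genes (y axis), in platelet-exposed cells (platelets plus LPS over platelets alone, dark red, upper) and in unexposed cells (LPS over untreated, orange, lower); bars are SE and filled points had an edgeR adjusted p under 0.05. Ctsc stands near 1.30 and Ctsl near −1.53 in both, while Ctsh is filled only in unexposed cells and Ctsb only in exposed ones.

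Against untreated cells, platelets plus LPS left Ctsl at its lowest level, 3.91-fold lower (log2 −1.97, SE 0.07, edgeR adjusted p = 6.93e-13). Ctsk stood higher than in untreated cells (log2 1.00, SE 0.13, edgeR adjusted p = 9.11e-06), with 17.4 ± 2.41 CPM against 8.72 ± 0.657 CPM (SD, n = 3 each). By edgeR, Ctsc, Ctsh, Ctsk and Ctsz were higher and Ctsd, Ctsl and Lgmn lower, where 48.2% of all genes were called, 26.7% higher and 21.5% lower. Libraries did not overlap for 8 of the 10 genes, and for 60.4% of all genes. Ctsh, at log2 0.51 (edgeR adjusted p = 2.98e-05), lost its call with library size alone (log2 0.12, adjusted p = 0.138). Ctsa, Ctsb and Cst3 were not called under TMM (log2 0.15, 0.04 and −0.14, edgeR adjusted p = 0.0934, 0.68 and 0.383). With library size alone all 3 were called lower, at log2 −0.24, −0.35 and −0.53 (edgeR adjusted p = 0.0141, 0.000288 and 0.00074). Upper-quartile factors called Ctsb and Cst3 lower, at log2 −0.17 and −0.35 (edgeR adjusted p = 0.0237 and 0.0359). Ctsa was called higher with just the 2 groups fitted (log2 0.13, edgeR adjusted p = 0.0495), and Cst3 lower without platelet replicate 1 (log2 −0.18, edgeR adjusted p = 0.0453). The comparisons against untreated cells share the same 3 untreated libraries, and others share the platelet or LPS libraries, so likeness between them is not independent.

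The order of the group means sums this up gene by gene. For Ctsl the order was untreated, platelets alone, LPS alone and platelets plus LPS, with every neighbour separate and the highest mean 3.91 times the lowest. For Ctsk it was platelets alone, platelets plus LPS, untreated and LPS alone, again all separate, with a span of 5.96 times. Ctsz (platelets plus LPS, LPS alone, platelets alone, untreated) and Ctsd (platelets alone, untreated, platelets plus LPS, LPS alone) also had 4 separate groups, with spans of 1.79 and 1.78 times. For Ctsc the 2 LPS groups overlapped each other, as did the 2 groups not given LPS, with a span of 2.47 times. Lgmn overlapped only between the 2 LPS groups (1.45 times), and Ctsh only between the 2 platelet groups at its top (1.42 times). Ctsb spanned 1.29 times, with platelets plus LPS and untreated cells overlapping, and Ctsa 1.20 times, with overlap at both ends of its order. Cst3 spanned 1.10 times, and every neighbour overlapped.

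The other cathepsins of the mouse were mostly too low to test. Of 14 listed, 4 were tested: Ctse, Ctsf, Ctso and Ctss. Ctss, the endopeptidase that makes the last cuts in the invariant chain, had 2672, 2785 and 2791 CPM with platelets plus LPS, 1968, 1906 and 1801 CPM with LPS alone, 3307, 2752 and 2567 CPM with platelets alone, and 1832, 1803 and 1977 CPM in untreated cells. Both platelet groups lay above both unexposed groups. Ctss was higher with platelets than in untreated cells (log2 0.62, SE 0.09, edgeR adjusted p = 0.000292) and with platelets plus LPS than with LPS alone (log2 0.54, edgeR adjusted p = 0.000968), and was not called with LPS alone (log2 0.02, edgeR adjusted p = 0.896). Ctso averaged 41.9 ± 4.67 CPM with LPS alone and 32.6 ± 3.26 CPM in untreated cells and was called higher (log2 0.36, edgeR adjusted p = 0.0258). Ctse and Ctsf had group means of at most 1.09 CPM and were called in no comparison.

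Protease inhibitors were read from a list of their own, and whether each one, the serpins included, blocks the proteases described here was not tested. Of 23 listed cystatins, stefins, CTLA-2 proteins and serpins, 21 were in the files and 8 were tested. Called members, higher and lower, were 2 and 0 with platelets alone over untreated cells, 2 and 2 with LPS alone, and 2 and 0 with platelets plus LPS over LPS alone. Over all genes 6.49%, 50.7% and 7.28% were called in these comparisons. Without platelet replicate 1 the counts of inhibitors were 2 and 0, 3 and 2, and 3 and 0. Genes called over all genes rose too, from 6661 to 7426 with LPS alone. With platelets plus LPS over LPS alone they rose from 957 to 1640. The medians of the 8 were log2 0.42, 0.19 and 0.19, beside 0, 0.01 and 0.01 over all genes.

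Ctla2a, a mouse inhibitor related to the cathepsin propeptide, had 95.7, 89.3 and 74.2 CPM with platelets plus LPS, against 2.35, 1.75 and 2.07 CPM with LPS alone. With platelets alone it had 239, 139 and 114 CPM, against 1.23, 2.17 and 1.90 CPM in untreated cells. The platelet libraries stood far above the others, with log2 fold changes of 5.38 (SE 0.29, edgeR adjusted p = 1.57e-08) with LPS and 6.53 (SE 0.29, edgeR adjusted p = 3.47e-09) without it. The platelet marker Gng11 moved the same way, at 71.6, 64.1 and 58.2 CPM with platelets plus LPS against 1.53 to 2.43 CPM with LPS alone, and 148, 77.1 and 73.6 CPM with platelets alone against 1.65 to 2.07 CPM in untreated cells. Of 13 platelet markers tested, 6 were higher and 1 lower with platelets alone over untreated cells. With platelets plus LPS over LPS alone, 7 were higher and 1 lower, where 6.49% and 7.28% of all genes were called in these 2 comparisons. Sums of all 18 listed, mostly Pf4, overlapped between platelets alone (3409 to 6117 CPM) and untreated cells (3792 to 4500 CPM). They also overlapped between platelets plus LPS (3640 to 3916 CPM) and LPS alone (3905 to 4719 CPM). Platelet replicate 1 was the highest library for Ctla2a and Gng11, and whether Ctla2a came with remaining platelets was not tested. The close homologue Ctla2b had at most 1.34 CPM in any library, and reads of these 2 genes may be split between them. At these low levels, Ctla2b had 0.509 to 0.728 CPM with platelets plus LPS and 0.203 to 0.218 CPM with LPS alone. With platelets alone it had 1.14 to 1.34 CPM, against 0.666 to 1.26 CPM in untreated cells.

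Serpinb6a, an intracellular serpin, had 136, 103 and 98.6 CPM with platelets alone, against 73.9, 74.9 and 83.8 CPM in untreated cells (log2 0.53, edgeR adjusted p = 0.00803). With LPS alone it had 53.5, 51.0 and 48.0 CPM and was lower than in untreated cells (log2 −0.61, edgeR adjusted p = 0.000278). Cst7, or cystatin F, which acts within the lysosome on Ctsc, rose with LPS alone to 6.26 ± 0.512 CPM, against 2.35 ± 0.423 CPM in untreated cells (log2 1.41, edgeR adjusted p = 5.63e-05). Cstb, the cytosolic stefin B, was called only with platelets plus LPS over untreated cells, at 1501 ± 63.4 CPM against 1014 ± 109 CPM (log2 0.57, edgeR adjusted p = 0.00408). Serpina3g, an intracellular serpin, had 7.49 to 9.26 CPM with LPS alone, against 0.0351 CPM in 1 untreated library and 0 in the other two.

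Genes of lysosomal sorting and the MiT/TFE factors bring cathepsins to the lysosome and regulate lysosomal genes. Of 11 listed and tested, 4 were higher and 3 lower with LPS alone over untreated cells, 1 higher and 0 lower with platelets alone, and 2 higher and 1 lower with platelets plus LPS over LPS alone, and these counts were unchanged without platelet replicate 1. Over all genes 50.7% were called with LPS alone, 6.49% with platelets alone and 7.28% with platelets plus LPS over LPS alone. Leaving out platelet replicate 1 raised the first from 6661 to 7426 genes and the last from 957 to 1640. M6pr, the smaller mannose 6-phosphate receptor, had 937, 880 and 909 CPM with LPS alone, against 436, 430 and 417 CPM in untreated cells (log2 1.09, SE 0.09, edgeR adjusted p = 2.17e-08). Its libraries with LPS, with or without platelets, were all above those without LPS. Tfec rose with LPS alone to 117 ± 1.79 CPM, against 15.7 ± 1.26 CPM in untreated cells (log2 2.91, edgeR adjusted p = 6.64e-13), and Mitf to 94.4 ± 3.33 CPM, against 29.7 ± 1.19 CPM (log2 1.67, edgeR adjusted p = 1.45e-08). Tfeb went the other way, at 19.2 ± 2.01 CPM with LPS alone and 40.6 ± 1.25 CPM in untreated cells (log2 −1.08, edgeR adjusted p = 1.06e-07); it falls outside the naming rule and was chosen after its values were seen. Tfec was lower with platelets plus LPS than with LPS alone, at 73.2 ± 1.49 CPM against 117 ± 1.79 CPM (log2 −0.68, edgeR adjusted p = 0.000228), and its interaction was called (log2 −0.57, edgeR adjusted p = 0.0464). That interaction lies near the threshold, and its values under the alternatives are not given here. With platelets, the receptor Scarb2, which carries glucocerebrosidase to the lysosome, was higher both without LPS (log2 0.39, edgeR adjusted p = 0.00725) and with it (log2 0.33, edgeR adjusted p = 0.0202).

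**Figure D5:**
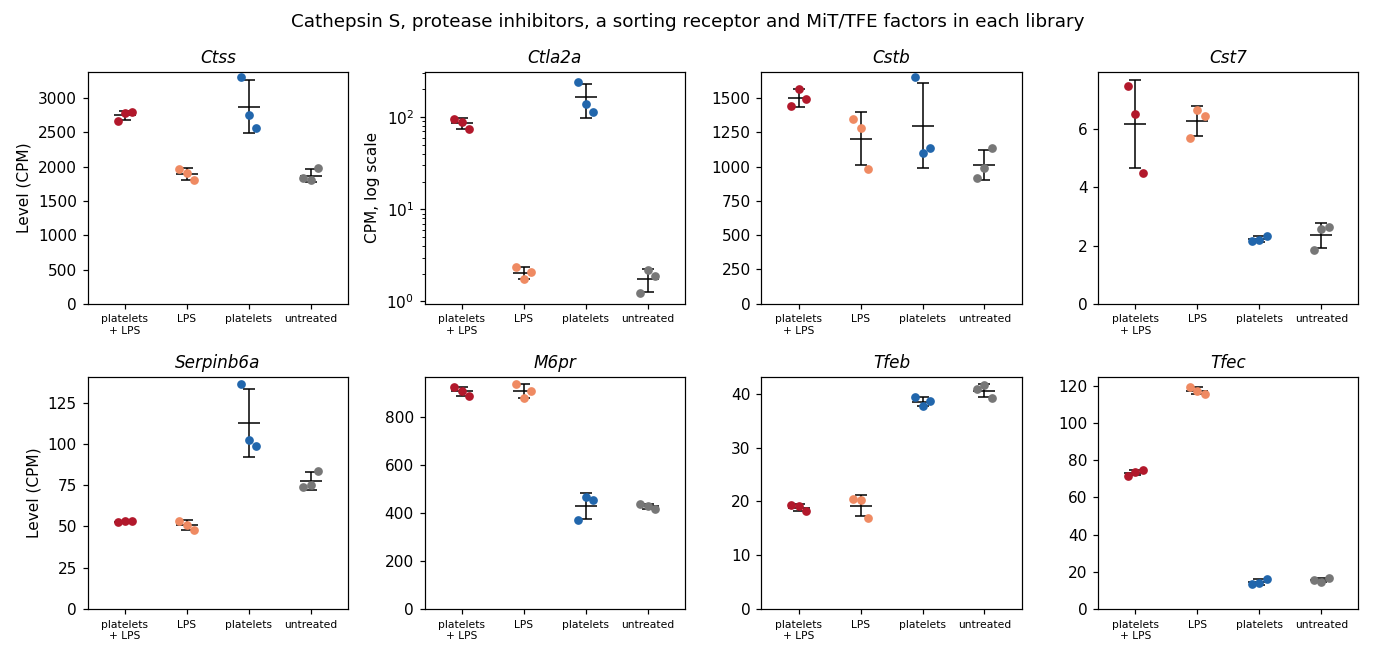
Level in CPM (y axis, from 0 except for Ctla2a, whose axis is logarithmic) of cathepsin S, 4 inhibitors, a sorting receptor and 2 MiT/TFE factors in each of the 12 libraries, by group (x axis); points are libraries and bars are mean ± SD, n = 3 each. Ctss and Ctla2a are higher in both platelet groups, M6pr and Tfec are higher and Tfeb is lower in both LPS groups, and platelet replicate 1 is the highest library for Ctss, Ctla2a, Cstb and Serpinb6a.

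The remaining lysosomal hydrolases and cofactors make up a list of 36 genes, all tested. With platelets alone over untreated cells, 6 were higher and 1 lower, and without platelet replicate 1 the counts were 12 and 1. With LPS alone over untreated cells, 4 were higher and 13 lower (4 and 18 without that library). With platelets plus LPS over LPS alone, 5 were higher and 0 lower (9 and 2 without it). Over all genes 6.49%, 50.7% and 7.28% were called in these comparisons with all 12 libraries. Leaving out platelet replicate 1 raised the second from 6661 to 7426 genes and the third from 957 to 1640. The total of 17 of 36 with LPS alone is near the 50.7%. Its split, 4 higher and 13 lower, stands beside 27.7% of all genes higher and 23% lower under TMM. The medians of the list were log2 0.15, −0.13 and 0.10. Pla2g15, the lysosomal phospholipase A2, had the smallest p with LPS alone, with means of 17.9 CPM there and 68.0 CPM in untreated cells (log2 −1.92, edgeR adjusted p = 2.4e-11). Sgsh, which removes sulfate from heparan sulfate, had 2.13 CPM with LPS alone against 17.8 CPM (log2 −3.07, edgeR adjusted p = 1.89e-09), while the acid phosphatase Acp2 had 321 CPM against 123 CPM (log2 1.39, edgeR adjusted p = 2.59e-09). Naglu, another heparan sulfate enzyme, was higher with platelets both without LPS (log2 0.53, edgeR adjusted p = 0.00504) and with it (log2 0.64, edgeR adjusted p = 0.00124).

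Genes of MHC class II processing, whose products depend on cathepsins, were in part higher with platelets: 6 of 9 were higher and 0 lower with platelets alone over untreated cells (5 and 0 without platelet replicate 1), with a median log2 fold change of 0.89. With LPS alone 5 were higher and 2 lower (5 and 3 without that library), and with platelets plus LPS over LPS alone 2 were higher and 0 lower (4 and 0). Over all genes 6.49%, 50.7% and 7.28% were called in these comparisons with all 12 libraries. Leaving out platelet replicate 1 raised the second from 6661 to 7426 genes and the third from 957 to 1640. H2-Aa, a class II chain, had 66.0 CPM with platelets alone against 31.7 CPM in untreated cells (log2 1.06, edgeR adjusted p = 6.11e-06). Its platelet effect was smaller with LPS than without it, an interaction of log2 −0.63 (edgeR adjusted p = 0.0343). The values of that interaction under the alternatives are not given here. Over all genes 208 interactions were called, and 87 to 361 when 1 library was left out. Dendritic cell markers summed to 90.4 to 105 CPM with platelets plus LPS and 80.8 to 97.1 CPM with LPS alone, against 11.1 to 13.4 CPM with platelets alone and 6.56 to 9.05 CPM in untreated cells, none of the 9 markers was at 0 in a whole group, and their part in the result was not tested.

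Ctsk is an osteoclast gene, so other genes of osteoclasts and of cell fusion were read beside it. Of 10 listed, 8 were tested. With platelets alone 2 were higher and 2 lower (2 and 1 without platelet replicate 1), with a median log2 fold change of −0.14. Itgb3 is on this list and also on that of the platelet markers. Values with platelets alone are given only for Acp5, which was higher, and not for the 2 lower genes. Acp5, the tartrate-resistant acid phosphatase of osteoclasts, had 16.7 CPM with platelets alone against 9.44 CPM in untreated cells (log2 0.82, edgeR adjusted p = 4.34e-05). With LPS alone it had 92.6 CPM (log2 3.29 over untreated cells, edgeR adjusted p = 1.11e-13), where Ctsk fell. Nfatc1, the factor that drives osteoclast genes, had 13.9 CPM with LPS alone against 52.3 CPM in untreated cells (log2 −1.91, edgeR adjusted p = 2e-07). With LPS alone 3 of the 8 were higher and 4 lower (3 and 4 without platelet replicate 1), where 50.7% of all genes were called, and 6.49% with platelets alone. Leaving out that library raised the genes called with LPS alone from 6661 to 7426 over all genes.

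Cell type markers were read for what else the libraries held. The 12 monocyte markers summed to 37952 to 40687 CPM with platelets plus LPS, 35119 to 38886 CPM with LPS alone, 38860 to 41962 CPM with platelets alone and 33164 to 36747 CPM in untreated cells, and none was at 0 in a whole group. The 18 platelet and megakaryocyte markers summed to 3640 to 3916, 3905 to 4719, 3409 to 6117 and 3792 to 4500 CPM in the same order, mostly Pf4, which was as high in untreated cells (3843 ± 365 CPM) as with platelets alone (4124 ± 1401 CPM). Of the 13 tested, 6 were higher and 1 lower with platelets alone over untreated cells, and 7 higher and 1 lower with platelets plus LPS over LPS alone; Gp1bb was at 0 in 11 of the 12 libraries. The 12 neutrophil markers summed to 157 to 182 CPM with platelets plus LPS, 230 to 290 CPM with LPS alone, 197 to 221 CPM with platelets alone and 360 to 385 CPM in untreated cells, with Ly6g at 0 in the first and last of these groups. The 8 basophil and mast cell markers summed to 82.8 to 93.9, 104 to 107, 7.92 to 9.79 and 1.44 to 2.60 CPM, of which the histidine decarboxylase Hdc, also made by LPS-treated myeloid cells, gave most with LPS alone at 103 CPM. Of the 5 of these that were tested, 4 were higher with platelets alone over untreated cells. The 7 erythroid markers summed to 7.12 to 9.35 CPM with platelets plus LPS against 0.0362 to 0.894 CPM with LPS alone, and to 11.9 to 24.8 CPM with platelets alone against 1.26 to 2.07 CPM in untreated cells. These sums were low but higher in every platelet library, and 4 of 4 tested were called higher with LPS and 3 of 4 without it. Beside these marker counts, 6.49% of all genes were called with platelets alone over untreated cells. With platelets plus LPS over LPS alone it was 7.28%. Alas2 was at 0 in all 3 libraries of platelets plus LPS. Markers of B, T and NK, and stromal cells summed to at most 4.75, 3.52 and 10.96 CPM in any library. The part of any of these cells in the changes of the cathepsins was not tested.

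Within the 12 libraries, some genes tracked these members closely, which is a description over libraries that share their groups. By Pearson r of log2 CPM, among 7687 protein genes with a mean of at least 10 CPM, the 2 closest to Ctsc were M6pr (r = 0.999) and Mxd1 (r = 0.997), and those closest to Ctsl were Glul (r = 0.993) and Mbp (r = 0.991). Ctsd was closest to Pkib (r = 0.996) and Ntpcr (r = 0.994), and Ctsz to Pdzd11 (r = 0.992) and Rab20 (r = 0.991). Ctsk was closest to Arg1 (r = 0.976) and Apoe (r = 0.975). Ctsa was closest to Gpi1 (r = 0.985) and Smpdl3a (r = 0.961), Ctsb to Pygl (r = 0.983) and Vamp3 (r = 0.966), Ctsh to Ddost (r = 0.969) and Ldha (r = 0.965), and Cst3 to Hpf1 (r = 0.980) and Nop10 (r = 0.976). Among the 10 genes themselves, Ctsc ran opposite to Ctsl (r = −0.951) and Ctsd (r = −0.942), and Ctsa ran with Ctsb (r = 0.906).

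Some members share exon bases with other genes, and the library kit does not mark strand, so reads there cannot be told apart on either strand. The largest partner on the opposite strand was Nelfcd beside Ctsz, with 10 shared bases and at most 4.87% of the counts of Ctsz, followed by Pltp beside Ctsa, with 495 shared bases and at most 1.21% of its counts. Fdft1 shared 774 bases with Ctsb and had at most 0.499% of its counts. Gm47123, on the opposite strand, shares 1742 bases with Ctsl. Gm49369 shares 808 bases with Ctsd and Gm49230 shares 395 with Ctsl, both on the same strand, where strand could not separate the reads in any case. These 3 were listed at 0 in all 12 libraries.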

How the data were processed

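Per the labels' protocols, RNA came from the RNeasy Plus Micro kit, was pre-amplified by SMARTer v4 chemistry, which does not mark strand, and went into Nextera XT libraries. The deposited files give raw read counts as whole numbers, one library each. As tools, the submitters' processing notes list Salmon 1.5.2, featureCounts, Subread 2.0.1, STAR 2.7.9a and fastp 0.23.1. The build, annotation and strand setting used were not given in the sources used here. GENCODE M21, which held 49951 of 53819 names, gave gene lengths and exon overlaps, and RefSeq gave promoters. The listed inhibitors BC100530 and BC117090 were not used here.

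The 13151 genes kept by filterByExpr were fitted in R 4.3.3 with the quasi-likelihood model of edgeR 4.0.16, with TMM scaling and 4 group means over 12 libraries. Tests were two-sided, adjusted by Benjamini-Hochberg over all genes tested, with a threshold of 0.05. SE comes from the F statistic, and intervals are 95%. Reads amplified by PCR are not independent molecules, so depth bounds only counting error.

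The 10 genes and all lists were chosen with earlier results of these data known. The 10 genes are all named, as may be any tested cathepsin or inhibitor, up to 3 called genes per other list and comparison by smallest p, and the 2 genes most like each member, which for Lgmn are not reported here. Alternatives covered scaling (DESeq2 size factors, upper-quartile factors, library size alone), the filter (none or stricter), a replicate block, the tests of DESeq2 1.42.0 and limma 3.58.1 (voom), fits of just the 2 groups compared, and fits without each library. List counts without platelet replicate 1 or under other scalings, and other lengths per kilobase, were added after the data were seen.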

Additional observations from a re-analysis of the deposited data

How the results depend on the processing

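Of 1250 log2 fold changes of the 10 genes recomputed under alternatives, 1148 kept their direction and side of the threshold, 35 lost a call, 28 gained one and 39 changed sign without being called either way. Of those that lost or gained a call, 1 and 5 also changed sign. Ctsc, Ctsd, Ctsk, Ctsl and Lgmn with LPS, in exposed and unexposed cells, and Ctsk and Ctsl with platelets, with and without LPS, kept their calls and direction under all alternatives run. Changes of sign were among genes not called under TMM, apart from Ctsh with LPS alone. With platelets alone over untreated cells, Ctsc became 0.0158 under DESeq2 size factors and under the DESeq2 test, 0.0290 under upper-quartile factors, 0.000176 without a filter and 0.00774 with only the 2 groups, and Cst3 became 0.0129 under upper-quartile factors. With library size alone Ctsh became −0.15 with LPS over untreated cells. With platelets plus LPS over LPS alone, Lgmn became 0.00503 without a filter. With platelets plus LPS over platelets alone, Ctsh became −0.0474 under DESeq2 size factors and under the DESeq2 test, −0.24 under upper-quartile factors and −0.36 with library size alone (called lower under both), −0.00408 without a filter and −0.00119 with the stricter filter. With platelets plus LPS over untreated cells, upper-quartile factors and library size alone gave −0.0568 and −0.24 for Ctsa, called lower under the second, and −0.17 and −0.35 for Ctsb, called lower under both. In the interaction, Ctsc became −0.00752 under upper-quartile factors, and Ctsl 0.0140 with library size alone and 0.00561 without a filter. The cause was not tested.

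Leaving out each library in turn gave 4 to 7 of the 10 genes called for platelets alone over untreated cells, 6 to 8 for LPS alone over untreated cells, 2 to 4 for platelets plus LPS over LPS alone, 6 to 8 over platelets alone and 7 to 8 over untreated cells. It gave log2 fold changes of −0.0926 to 0.15 for Ctsc and −0.20 to 0.0818 for Cst3 with platelets alone over untreated cells, −0.0724 to 0.0678 for Lgmn with platelets plus LPS over LPS alone, −0.0415 to 0.0531 for Ctsh and −0.22 to 0.0263 for Cst3 over platelets alone, −2.09e-05 to 0.0762 for Ctsb over untreated cells, and in the interaction −0.14 to 0.12 for Ctsc, −0.0453 to 0.0212 for Ctsl and −0.13 to 0.14 for Cst3. Over all genes, 854 were called with platelets alone over untreated cells, 1291 by DESeq2, 415 with only the 2 groups and 410 (without untreated replicate 2) to 1027 (without platelet replicate 3) when 1 library was left out. For platelets plus LPS over LPS alone 957 were called, and 557 (without its replicate 2) to 1640 (without platelet replicate 1). For the interaction 208 were called, 371 without a filter, 403 by DESeq2 and 87 (without untreated replicate 2) to 361 (without platelet replicate 1). With LPS alone over untreated cells 6661 were called, and 5906 to 7426 when 1 library was left out. With platelets plus LPS these were 6498, and 5835 to 6754, over platelets alone. Over untreated cells they were 6345, and 5577 to 7118.

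The labels do not say whether replicate numbers pair the libraries. Of 18 pairs with the same number in different groups, 1 had a correlation of deviations over 0.1 (range −0.23 to 0.14). Among the 12 libraries, 1 correlated best with its own number. With 3 libraries a group, these correlations cannot exclude that libraries of the same number belong together. With a replicate block, 4 genes were called with platelets alone over untreated cells (Ctsb at adjusted p = 0.0577 and Ctsd at 0.0581 were lost, by edgeR), 2 with platelets plus LPS over LPS alone (Ctsh at 0.061 was lost, by edgeR), and the interaction had 118 genes called.

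Under other scalings the split of all genes called, higher and lower, was, with platelets plus LPS over platelets alone (3627 and 2871 under TMM), 2536 and 4623 under upper-quartile factors and 2194 and 5749 with library size alone, and, over untreated cells (3513 and 2832 under TMM), 2601 and 4242, and 2150 and 5926. With platelets alone over untreated cells (478 and 376) it was 542 and 289 under upper-quartile factors. Depth limits Ctsk most, with 111 to 1086 counts per library.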
